A study of Mus musculus with 16 samples.

Results

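The repressor gene *Rest*, 7 genes of the corepressors that it recruits and the host gene of a miR-124 locus were measured in mouse cord after spinal cord injury (SCI). The 9 genes were chosen by their symbols, with earlier results of these data known, from the 24411 genes of the deposited tables. *Rest* and 2610100L16Rik (*Mir124-2hg* in current annotation) were selected on their differences among the 3 groups, so their group differences are described with no test. The other 7 genes are *Rcor1*, *Rcor2*, *Rcor3*, *Sin3a*, *Hdac1*, *Hdac2* and *Kdm1a*.

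Total RNA of 16 female C57BL/6J mice was sequenced from a 5 mm piece of thoracic cord. In the SCI + Atorvastatin group (n = 7) and the SCI + Vehicle group (n = 7), mice aged 12 weeks received a lateral compression to a 0.25 mm gap at vertebral level T8-9 under xylazine and ketamine. From 2 weeks after injury they were given, every day for 4 weeks, atorvastatin at 10 mg/kg in DMSO, PEG 400 (polyethylene glycol), Tween 80 and saline, or that vehicle alone, and tissue was taken at 6 weeks. The Uninjured Control group (n = 2) had neither injury nor injections, and its age is not used here because the sources differ on it. The cells of the cord were not separated, so fewer cells of a type and less RNA per cell cannot be told apart.

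REST (RE1-silencing transcription factor) is a zinc-finger repressor that binds the RE1 element near many neuronal genes and keeps them silent outside neurons. Its N-terminal domain recruits the SIN3 complex and its C-terminal domain recruits CoREST, and both bring histone deacetylases. CoREST also carries LSD1, the histone demethylase that *Kdm1a* encodes. miR-124, an abundant microRNA of neurons, is made from 3 loci, and the REST complex represses those loci in cells that are not neurons. In turn, miR-124 lowers the mRNAs of several proteins that work with REST or belong to non-neuronal cells.

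The RE1 element is shown first, because it is what ties the repressor to its neuronal genes. Its central letters are CAGCACC, any 2 bases, and GGACAG. RefSeq promoter sequences (build GRCm38.p6, 250 bases before to 50 bases after a transcript start) were searched on both strands for these 13 letters with at most 1 letter different. Of 32851 promoters, 61 (0.186%) held such a match and 12 (0.0365%) held an exact one. Among 25 neuronal genes listed as REST targets, 18 had promoter sequences and 3 held a match, each with 1 letter different. In the lines that follow, capitals mark the searched letters, read 5′ to 3′ on the strand given.

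*Gria2*, chr3:80802985-80803011, plus strand: cgatttTAGCACCgcGGACAGcgcttt
*Celsr3*, chr9:108825914-108825940, plus strand: tccgttCAGCACCgtGGGCAGcacttc
*Syn1*, chrX:20921128-20921154, minus strand: cggattCAGCACCgcGGTCAGagcctt

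These matches lay 155, 110 and 215 bases before the transcript starts of *Gria2* (a glutamate receptor subunit), *Celsr3* (an adhesion receptor of developing axons) and *Syn1* (the synaptic vesicle protein synapsin I). Of the 9 genes themselves, 6 had promoter sequences (7 promoters) and 0 of these held a match. No promoter sequence was given for *Rest*, *Hdac1* or 2610100L16Rik. A match is a description of letters and not a bound site.

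The 16 libraries held 14823292 to 25579826 counts, and the shallowest was SCI + Vehicle 4. The 2 Uninjured Control libraries stood apart: they had counts for 12356 and 12732 genes, against 16399 to 19338 in the 14 SCI libraries, and 7 markers of liver summed to 721 and 4146 counts per 1000000 counts of the library (CPM) in them, against at most 5.48 CPM in any SCI library. Markers of central nervous tissue were high in all libraries, where 9 neuron markers summed to at least 4619 CPM and 7 oligodendrocyte markers to at least 13167 CPM. These markers do not tell spinal cord from other central nervous tissue. The part that these liver transcripts or the lower number of detected genes played in any difference from Uninjured Control was not tested, and where a call of a named gene changed without 1 of these libraries, the value is given beside the result. All CPM values, these marker sums included, were scaled by TMM (edgeR's trimmed mean of M-values), and transcripts per 1000000 transcripts (TPM), which divide by transcript length, are used to compare genes with each other.

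All 9 genes had a mean above 1 TPM in each of the 3 groups and passed the filter of the fit. In SCI + Vehicle cord the deacetylase genes were the most abundant, with 86.7 ± 11.7 TPM for *Hdac2* and 56.1 ± 3.55 TPM for *Hdac1* (mean ± SD, n = 7 here and below). *Kdm1a* followed at 52.0 ± 6.32 TPM, *Sin3a* at 33.0 ± 5.07 TPM, *Rcor3* at 20.1 ± 5.52 TPM, *Rest* at 16.8 ± 3.26 TPM, 2610100L16Rik at 15.8 ± 6.52 TPM, *Rcor1* at 9.63 ± 3.86 TPM and *Rcor2* at 6.32 ± 1.54 TPM. In this order of levels, *Hdac1* and *Kdm1a* did not differ beyond their spread, nor did *Rcor3*, *Rest* and 2610100L16Rik, nor 2610100L16Rik and *Rcor1*, nor *Rcor1* and *Rcor2*. The repressor itself was listed at a lower TPM than each of the deacetylases, LSD1 and the SIN3 scaffold.

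**Figure D1:**
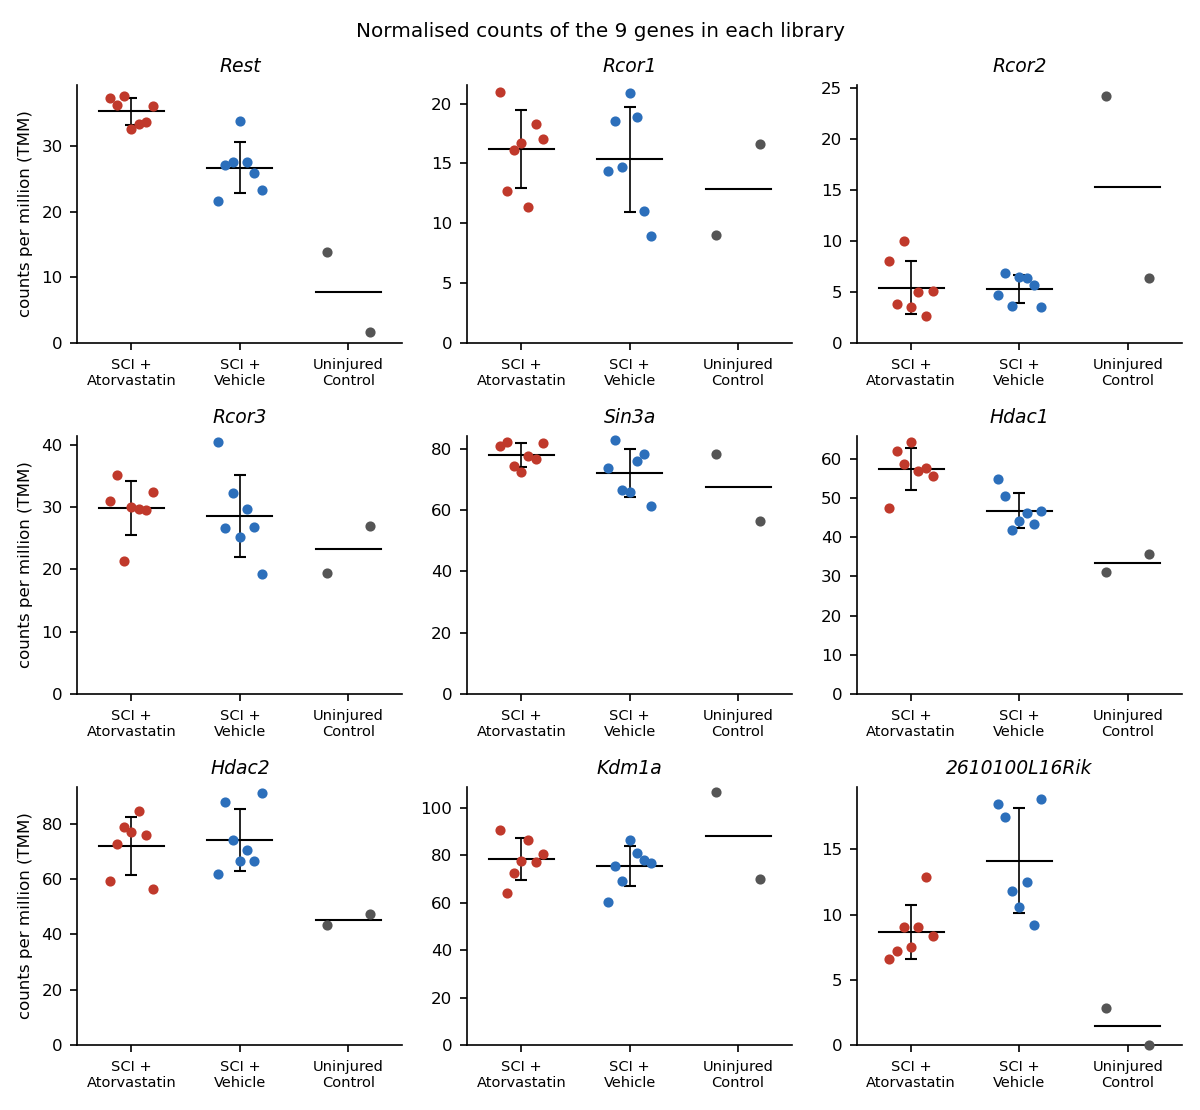
Each point is a mouse, the vertical axis is its TMM-scaled CPM, the horizontal line is the group mean and the bar is ± 1 SD (n = 7; no SD is drawn for the 2 uninjured mice). Rest sits at 32.7 to 37.6 in SCI + Atorvastatin, 21.7 to 33.9 in SCI + Vehicle and 1.72 and 13.9 in Uninjured Control, while 2610100L16Rik is at 6.56 to 12.9, 9.24 to 18.9, and 0 and 2.86.

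*Rest* (chr5:77265491-77286432, plus strand, GENCODE M21 on GRCm38, the assembly named mm10 in the submitters' notes) was low in uninjured cord and higher after injury. In SCI + Atorvastatin its lowest, median and highest values were 32.7, 36.1 and 37.6 CPM, in SCI + Vehicle 21.7, 27.1 and 33.9 CPM, and the uninjured mice had 13.9 and 1.72 CPM. Every injured mouse was above both uninjured mice, and 4 of the 7 atorvastatin mice were above the highest vehicle mouse, so the SCI groups overlapped. How many of all genes separate from both uninjured mice was not counted, here or for the genes below. The coefficient of variation was 5.75% with atorvastatin and 14.5% with vehicle, a difference that was not tested. The fitted log2 fold change between the SCI groups was 0.40 (SE 0.10, 95% interval 0.19 to 0.62), a 1.32-fold higher level with atorvastatin.

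Against Uninjured Control the log2 fold change of *Rest* was 1.77 (SE 0.60) in SCI + Vehicle and 2.19 (SE 0.59) in SCI + Atorvastatin. The size of both rested on which uninjured mouse was used, since these mice had 276 and 38 counts. Without Uninjured Control 1 the values were 3.94 and 4.37, and without Uninjured Control 2 they were 0.93 and 1.35. The 2 comparisons share these control mice, so they are not independent of each other.

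2610100L16Rik is a long non-coding RNA gene on the plus strand of chromosome 3 (chr3:17789921-17808970 in GENCODE M21, and chr3:17789921-17800071 in RefSeq). The miR-124 hairpin *Mir124a-2* (chr3:17795662-17795770) lies within it. Of its 7 GENCODE transcripts, 5 carry the hairpin in an intron, 1 starts inside it and 1 ends before it. The host row had 57 and 0 counts in the uninjured mice (2.86 and 0 CPM), while the row of the hairpin inside it had 0 and 375 counts in the same mice. In SCI + Vehicle its lowest, median and highest values were 9.24, 12.5 and 18.9 CPM, and in SCI + Atorvastatin they were 6.56, 8.37 and 12.9 CPM. On this row all injured mice were above both uninjured mice, and 6 of 7 atorvastatin mice were below the lowest vehicle mouse. With the hairpin row added, the order against uninjured cord did not hold: the sums were 2.86 and 17.0 CPM in the uninjured mice, 10.4 to 22.9 CPM with vehicle (median 13.5) and 8.41 to 14.8 CPM with atorvastatin (median 9.47). The SCI groups then overlapped more, since SCI + Atorvastatin 4 and 5 (10.9 and 11.4 CPM) also lay within the vehicle range. The fold changes and relations below use the host row alone.

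On the host row the exception, SCI + Atorvastatin 6, had 12.9 CPM and lay within the vehicle range. Between the SCI groups the log2 fold change of 2610100L16Rik was -0.71 (SE 0.20, 95% interval -1.12 to -0.30), a ratio of 0.611. Against Uninjured Control it was 3.31 (SE 1.19) with vehicle and 2.60 (SE 1.19) with atorvastatin, with the 95% interval of the latter running from -0.05 to 5.26. Against the uninjured library with 57 counts alone, the log2 fold changes were 2.29 and 1.59. No fold is given against the library with 0 counts, where the hairpin row held 375.

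The other miR-124 rows differed from this host gene. *Mir124a-1hg*, the host gene of the hairpin on chromosome 14 (chr14:64587331-64593961), had lowest, median and highest values of 47.5, 60.1 and 67.4 CPM with vehicle, 39.9, 55.4 and 71.7 CPM with atorvastatin, and 7.93 and 36.7 CPM in the uninjured mice. It rose in SCI + Vehicle against Uninjured Control (log2 fold change 1.37, SE 0.44, adjusted p = 0.0386), and in SCI + Atorvastatin the value was 1.2515 (SE 0.48, adjusted p = 0.0633). Without Uninjured Control 2 it was called in both SCI groups, at 2.86 and 2.73, and without Uninjured Control 1 the values were 0.66 (adjusted p = 0.0233) and 0.54 (adjusted p = 0.111), vehicle first. With atorvastatin against vehicle its log2 fold change was -0.14 (SE 0.13, adjusted p = 0.852). The adjusted p-values are Benjamini-Hochberg values of edgeR's quasi-likelihood test over 16091 genes.

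The hairpin row *Mir124a-2* held 8 to 91 counts in the injured mice and 0 and 375 counts in the uninjured mice, and its TPM was listed at 0 in every library. It shares its place with 2610100L16Rik, and how reads were divided between the rows is not given in the sources used here, so both rows are uncertain. In Uninjured Control 2 the host row was at 0 while the hairpin row had 375 counts (17.0 CPM). *Mir124a-1* was at 0 in all libraries, and *Mir124a-3* had 0 to 58 counts. A total RNA library of this kind does not measure the mature microRNA.

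The 3 CoREST genes encode proteins that bind LSD1 and deacetylases. *Rcor3* (chr1:192098546-192138062, minus strand) took the largest share of their summed TPM in SCI cord, 55.7 ± 7.30% with vehicle and 56.3 ± 13.4% with atorvastatin. *Rcor1* (chr12:111039351-111115901, plus strand) took 26.3 ± 6.85% and 28.1 ± 6.60%, and *Rcor2* (chr19:7267325-7275225, plus strand) took 18.0 ± 3.82% and 15.6 ± 9.70%. The shares of the SCI groups differed by less than their SDs. In the uninjured mice the shares had no common order, with *Rcor2* at 56.2% and 0% and *Rcor3* at 31.3% and 76.4%.

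**Figure D2:**
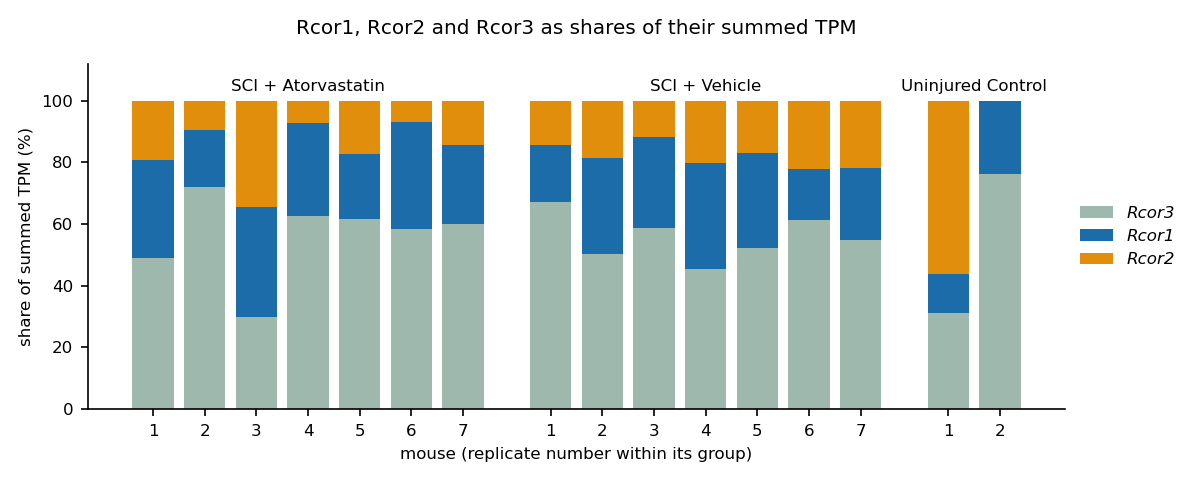
Each bar is a mouse, numbered within its group, and the vertical axis gives the percent of the summed TPM of Rcor1, Rcor2 and Rcor3 that each gene takes. Rcor3 is the largest part in all SCI mice except SCI + Atorvastatin 3 (29.9%), and the 2 uninjured bars differ, with Rcor2 at 56.2% and 0%.

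*Rcor2*, the CoREST paralog studied in neural progenitors, had 24.2 and 6.39 CPM in uninjured cord. It had lowest, median and highest values of 3.56, 5.64 and 6.85 CPM with vehicle and 2.62, 4.97 and 9.96 CPM with atorvastatin. All injured mice except SCI + Atorvastatin 1 and 3 and SCI + Vehicle 2 and 4 were below both uninjured mice. *Rcor2* fell in SCI + Vehicle against Uninjured Control (log2 fold change -1.53, SE 0.50, adjusted p = 0.0414), and in SCI + Atorvastatin the value was -1.49 (SE 0.57, adjusted p = 0.0625). Without Uninjured Control 1 these values were -0.28 (adjusted p = 0.683) and -0.22 (adjusted p = 0.764), and without Uninjured Control 2 *Rcor2* was called lower in both groups (-2.20 and -2.16). In SCI + Atorvastatin it was also called lower by DESeq2 (adjusted p = 0.0417) and with all 3 groups in 1 edgeR fit (adjusted p = 0.0176). In SCI + Vehicle *Rcor2* was called lower in 3 of 6 other fits on all mice. It was not called there by edgeR with no gene filter (adjusted p = 0.0541) or with a mean above 1 TPM required in every group (adjusted p = 0.0671). With any 1 vehicle mouse left out the vehicle call was lost (edgeR adjusted p from 0.0579 to 0.0736). Uninjured Control 2 had 141 counts for *Rcor2* while its TPM was listed at 0, and on log2(TPM + 1) the direction turned to 0.52 and 0.35. The SCI groups differed by 0.03 on the log2 scale (95% interval -0.58 to 0.65).

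*Rcor1*, the first described CoREST, ranged from 11.4 to 20.99 CPM with atorvastatin (median 16.7) and from 8.98 to 20.9 CPM with vehicle (median 14.7), and the uninjured mice had 9.04 and 16.6 CPM. *Rcor3* ranged from 21.3 to 35.1 CPM (median 29.9) and from 19.3 to 40.4 CPM (median 26.8), with 19.4 and 27.0 CPM in uninjured cord. The groups overlapped for both genes. Against Uninjured Control neither passed the test in either SCI group, with log2 fold changes of 0.24 (SE 0.41) and 0.34 (SE 0.33) for *Rcor1* and 0.29 (SE 0.29) and 0.37 (SE 0.22) for *Rcor3*, vehicle first, and adjusted p from 0.215 to 0.698. This depended on Uninjured Control 2, without which both were called higher in SCI + Atorvastatin (*Rcor1* 0.84, adjusted p = 0.0361; *Rcor3* 0.62, adjusted p = 0.0440).

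*Sin3a* (chr9:57072040-57128366, plus strand) encodes the scaffold of the SIN3 complex. In SCI + Atorvastatin it had the lowest coefficient of variation of the 9 genes, 4.98%, and with vehicle it was 10.7%. Its values ran from 72.2 to 82.2 CPM with atorvastatin (median 77.6) and from 61.4 to 83.0 CPM with vehicle (median 73.8), and the uninjured mice had 78.4 and 56.4 CPM. Against Uninjured Control the log2 fold changes were 0.09 (SE 0.17, adjusted p = 0.735) with vehicle and 0.22 (SE 0.13, adjusted p = 0.214) with atorvastatin. Without Uninjured Control 1 *Sin3a* was called higher in SCI + Atorvastatin (0.48, adjusted p = 0.0102), as it was by limma on log2(TPM + 1) (0.42, adjusted p = 0.0373).

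*Kdm1a* (chr4:136550540-136602723, minus strand) encodes LSD1, which removes methyl groups from histones. It ranged from 64.0 to 90.6 CPM with atorvastatin (median 77.6) and from 60.2 to 86.3 CPM with vehicle (median 76.5), while Uninjured Control 1 was above all injured mice at 107 CPM and Uninjured Control 2 was within their range at 69.8 CPM. The log2 fold changes against Uninjured Control were -0.24 (SE 0.17, adjusted p = 0.315) with vehicle and -0.16 (SE 0.17, adjusted p = 0.490) with atorvastatin, and the direction depended on the uninjured mouse used. Without Uninjured Control 1 the values were 0.10 and 0.18, with no call, and without Uninjured Control 2 *Kdm1a* was called lower in both groups, at -0.52 (adjusted p = 0.0303) and -0.44 (adjusted p = 0.0262).

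The genes of both class I deacetylases, which remove acetyl groups from histones, were above both uninjured mice in every injured mouse. The share of all genes with such a separation was not counted, so it is not a trait particular to these genes. *Hdac2* (chr10:36974544-37001889, plus strand) had 43.4 and 47.3 CPM in the uninjured mice, and its lowest, median and highest values were 61.7, 70.4 and 91.0 CPM with vehicle and 56.3, 75.7 and 84.6 CPM with atorvastatin. *Hdac2* rose in SCI + Vehicle (log2 fold change 0.69, SE 0.17, adjusted p = 0.0131) and in SCI + Atorvastatin (0.68, SE 0.17, adjusted p = 0.0103), and it passed the test without either uninjured mouse as well. The SCI groups differed by -0.04 on the log2 scale (95% interval -0.26 to 0.18).

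*Hdac1* (chr4:129516104-129542713, minus strand) had 31.1 and 35.7 CPM in the uninjured mice. Its lowest, median and highest values were 41.7, 46.1 and 54.7 CPM with vehicle and 47.5, 57.7 and 64.2 CPM with atorvastatin. Of the 7 atorvastatin mice, 6 were above the highest vehicle mouse, and SCI + Atorvastatin 1 was the exception. *Hdac1* rose in SCI + Atorvastatin against Uninjured Control (log2 fold change 0.79, SE 0.14, adjusted p = 0.00176), and in SCI + Vehicle the value was 0.47 (SE 0.17, adjusted p = 0.0615). In SCI + Vehicle it was called higher without Uninjured Control 2 (0.57, adjusted p = 0.0379), by DESeq2 (adjusted p = 0.0254), with all 3 groups in 1 edgeR fit (adjusted p = 0.0101) and by limma (adjusted p = 0.0342). Between the SCI groups the log2 fold change was 0.30 (SE 0.09, 95% interval 0.12 to 0.48). As a share of the summed TPM of both deacetylase genes, *Hdac1* took 44.4 ± 4.17% with atorvastatin and 39.4 ± 2.48% with vehicle, and 33.1% and 42.1% in the uninjured mice.

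**Figure D3:**
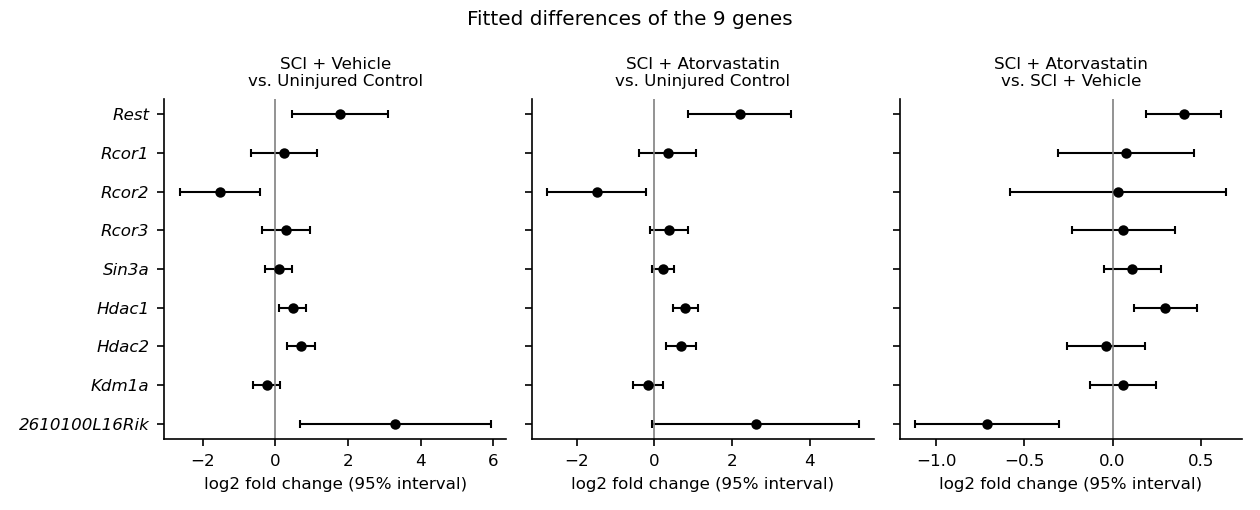
Points are fitted log2 fold changes of the 9 genes in the 3 comparisons, with 95% intervals, and the grey line marks 0; the horizontal scale differs between panels. Between the SCI groups the values run from -0.71 (2610100L16Rik) to 0.40 (Rest) and are a description, since genes were chosen on this contrast, and the intervals against Uninjured Control are wide for Rest and 2610100L16Rik.

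A gene was called against Uninjured Control where its adjusted p was below 0.05 and its change was past 25%. Of the 7 genes that were tested, 1 was called higher (*Hdac2*) and 1 lower (*Rcor2*) in SCI + Vehicle, where 19.9% of all 16091 tested genes were called higher and 9.91% lower. In SCI + Atorvastatin 2 were called higher (*Hdac1* and *Hdac2*) and 0 lower, where 24.9% of all genes were called higher and 14% lower. These counts are close to the shares among all genes and say nothing particular about the 7 genes. They moved when 1 uninjured mouse was left out, and more of all tested genes were called in those fits too. The remaining uninjured mouse is then assumed to vary as the injured mice do.

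Between the SCI groups the call used an unadjusted p below 0.001 and a change past 25%. Of the 9 genes, *Rest* was called higher and 0 were called lower, while 0.087% of all genes (14) were called higher and 0.0186% (3) lower. This contrast was used to choose the genes, and the count is given as a description. With 1 SCI mouse left out, *Rest* was called higher in 1 of 14 fits, *Hdac1* higher in 2 and 2610100L16Rik lower in 3. Of 7 other fits on all mice, 2 called *Rest* higher and 1 called 2610100L16Rik lower. By edgeR, 0 genes of 16091 had an adjusted p below 0.05 in it and 1132 had an unadjusted p below 0.05, and DESeq2 likewise gave 0 genes with an adjusted p below 0.05.

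The relation of *Rest* to 2610100L16Rik was then examined mouse by mouse. Over all 14 SCI mice, Pearson's r of the log2 CPM values was -0.81, but this value holds the group difference on which both genes were selected, and it is given as a description. With each group's mean removed, r was -0.56 (two-sided permutation within groups, p = 0.0603) and Spearman's rho of the ranks within groups was -0.45 (permutation p = 0.134). In 10 of the 14 mice the genes lay on opposite sides of their group means. Without the 2 mice with *Rest* farthest from the median, SCI + Vehicle 1 and 4, r was -0.41.

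Within the groups the relation had the same sign. In SCI + Vehicle r was -0.64 (exact permutation p = 0.117, n = 7) and rho was -0.57 (exact permutation p = 0.200). In SCI + Atorvastatin r was -0.39 (exact permutation p = 0.416, n = 7) and rho was -0.32 (exact permutation p = 0.498). Without the 2 mice of each group with *Rest* farthest from its group median, r was -0.43 with vehicle and -0.80 with atorvastatin, with no test. On log2(TPM + 1) the centred r was -0.74 (permutation p = 0.0102), so the side of the threshold depended on the measure. Adjusted for the summed neuron markers it was -0.55 (permutation p = 0.0576).

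**Figure D4:**
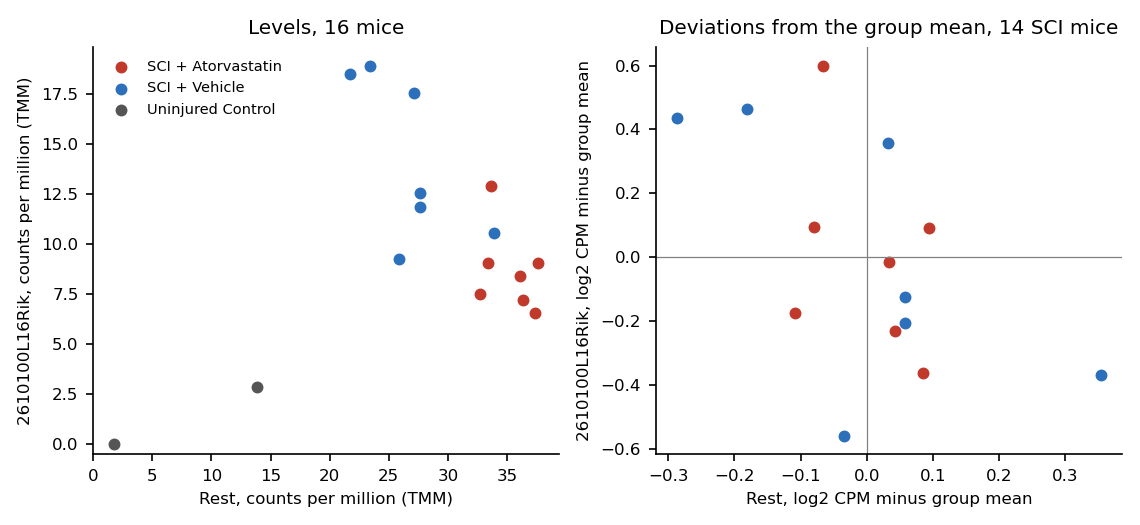
Left, TMM-scaled CPM of Rest (horizontal) and 2610100L16Rik (vertical) in the 16 mice; right, log2 CPM of the 14 SCI mice after the mean of each group was subtracted. The left panel shows the vehicle mice above and to the left of most atorvastatin mice, and on the right 10 of 14 mice fall in the corners where the deviations have opposite signs (r = -0.56).

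The same relation was computed between *Rest* and each of the other genes, 8 relations in all. The centred r was 0.57 for *Rcor1* (permutation p = 0.0659), 0.49 for *Rcor2* (p = 0.0270), 0.46 for *Kdm1a* (p = 0.118), 0.01 for *Sin3a* (p = 0.980), -0.20 for *Hdac2* (p = 0.515), -0.22 for *Rcor3* (p = 0.544) and -0.51 for *Hdac1* (p = 0.0683). After adjustment over the 8 relations the smallest permutation p was 0.137, and the smallest adjusted permutation p of rho was 0.185 (*Rcor2*, rho 0.64), so 0 relations held. *Hdac1*, like *Rest*, had a positive log2 fold change between the SCI groups, while its r with *Rest* within them was negative. For *Kdm1a*, *Rcor3* and *Sin3a* the value rested on SCI + Vehicle 1 and 4, without which r was -0.15, 0.37 and 0.51. Without these mice r was -0.51 for *Hdac2*, -0.33 for *Hdac1*, 0.62 for *Rcor1* and 0.64 for *Rcor2*.

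Set beside all 14887 genes with a mean above 1 TPM in both SCI groups, these values with *Rest* lay within the middle 90%. That middle 90% had a centred r with *Rest* between -0.57 and 0.57, and 2610100L16Rik stood at rank 14080 from the highest. For r with 2610100L16Rik the middle 90% ran from -0.48 to 0.49. Outside it were *Rest* (-0.56, rank 14572 from the highest) and *Hdac1* (0.52, rank 551), and the other genes were inside it. The highest r with *Rest* were those of *Clec16a* (0.88), *Zxdc* (0.88), *F2r* (0.87), *Spast* (0.86) and *Sumf1* (0.86), and the lowest those of *Dnajc8* (-0.93), *Ublcp1* (-0.92), 4930556M19Rik (-0.91), *Nop58* (-0.90) and *Ppt1* (-0.88). With 2610100L16Rik the highest were *Zscan26* (0.92), *Thoc7* (0.88), *Zc3h12b* (0.84), *Efcc1* (0.84) and *Ufl1* (0.83), and the lowest *Nfib* (-0.84), *Man1a* (-0.82), *Dcaf7* (-0.80), *Naglu* (-0.78) and *Lonrf3* (-0.78). The points are 14 mice that share library preparation and the TMM scaling, and these are descriptions with no test.

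Genes that act with REST were read from 4 lists. The first held 28 further subunits of the SIN3, CoREST and related corepressor complexes, and all were tested. In SCI + Vehicle 1 rose and 5 fell against Uninjured Control, and in SCI + Atorvastatin 6 rose and 6 fell. The median log2 fold change was -0.01 and -0.04, against 0.17 and 0.21 over all genes, of which 19.9% and 24.9% rose and 9.91% and 14% fell. *Ctbp1*, a corepressor that binds through short peptide motifs, fell by 0.81 (SE 0.14, adjusted p = 0.00163) with vehicle and by 0.81 (SE 0.09, adjusted p = 0.000118) with atorvastatin. *Sap30l*, a SIN3-associated protein, fell by 1.01 (SE 0.21, adjusted p = 0.00473) and by 1.04 (SE 0.15, adjusted p = 0.000423).

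*Arid4a*, another SIN3 subunit, rose by 0.66 (SE 0.21, adjusted p = 0.0388) and by 0.72 (SE 0.20, adjusted p = 0.0163) on the log2 scale, and was not called without Uninjured Control 1 (0.34 and 0.40, adjusted p = 0.165 and 0.0634). *Zmym2*, a zinc-finger protein of CoREST complexes, rose with atorvastatin (0.42, SE 0.10, adjusted p = 0.00898), and with vehicle the value was 0.37 (adjusted p = 0.0982). The vehicle count depended on Uninjured Control 2, without which more of the 28 genes were called, as were more of all tested genes. With atorvastatin against vehicle 0 of the 28 genes were called.

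Among 8 genes known to act on REST protein or transcript, 0 rose and 2 fell with vehicle, and 1 rose and 2 fell with atorvastatin, beside 19.9% and 24.9% of all genes that rose and 9.91% and 14% that fell. *Srrm4*, the neural splicing factor that diverts *Rest* into a truncated form, had 33.9 and 94.9 CPM in uninjured cord, 15.99 to 33.8 CPM with vehicle and 16.8 to 27.8 CPM with atorvastatin. It fell by 1.44 (SE 0.35, adjusted p = 0.0113) and by 1.57 (SE 0.31, adjusted p = 0.00286) on the log2 scale. Without Uninjured Control 2 the values were -0.51 (adjusted p = 0.227) and -0.66 (adjusted p = 0.0369). *Btrc*, the ubiquitin ligase subunit that marks REST for breakdown, fell by 0.41 (SE 0.12, adjusted p = 0.0250) and by 0.57 (SE 0.14, adjusted p = 0.00980), and with vehicle it was not called without Uninjured Control 2 (-0.24, adjusted p = 0.196). *Ctdsp2*, a small phosphatase of the REST complex, rose with atorvastatin (0.89, SE 0.31, adjusted p = 0.0460). Without Uninjured Control 1 *Ctdsp2* was called in both groups (1.65 and 1.82, vehicle first), and without Uninjured Control 2 in neither (0.16 and 0.32). The number called moved when 1 uninjured mouse was left out, and was higher without Uninjured Control 1 than without Uninjured Control 2 in each SCI group. More of all tested genes were called in both of these fits.

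Of the 25 neuronal REST target genes, 19 had a lower value than uninjured cord with vehicle and 20 with atorvastatin. With vehicle 2 rose and 7 fell, with a median log2 fold change of -0.52, and with atorvastatin 1 rose and 12 fell, with a median of -0.61. Over all genes 19.9% and 24.9% rose and 9.91% and 14% fell, with medians of 0.17 and 0.21. *Cplx1*, the presynaptic protein complexin, fell by 1.01 (SE 0.19, adjusted p = 0.00283) and by 1.21 (SE 0.10, adjusted p = 2.41e-05). *Tubb3*, neuronal tubulin, fell by 0.74 (SE 0.14, adjusted p = 0.00344) and by 0.83 (SE 0.08, adjusted p = 4.65e-05). *Chrm4*, a muscarinic receptor, had 0 counts in both uninjured mice and 29 to 110 counts in the injured mice. Against a limit of 3 counts over both uninjured libraries, its mean was 39.4-fold higher with vehicle and 30.7-fold higher with atorvastatin. That limit covers counting error only, and these libraries had counts for fewer genes than the injured ones. The folds are therefore not lower bounds on a change after injury.

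The 3 genes with the printed RE1 letters did not move together. *Gria2* rose with vehicle (0.44, SE 0.12, adjusted p = 0.0173), and with atorvastatin the value was 0.38 (SE 0.17, adjusted p = 0.101). Without Uninjured Control 2 it was not called with vehicle (0.32, adjusted p = 0.116), and without Uninjured Control 1 it was called with atorvastatin as well (0.50, adjusted p = 0.0378). *Syn1* fell with atorvastatin (-0.84, SE 0.18, adjusted p = 0.00432), and with vehicle the value was -0.60 (SE 0.26, adjusted p = 0.110). *Celsr3* had 9.11 and 94.5 CPM in the uninjured mice, with log2 fold changes of 0.25 (SE 0.56) and 0.33 (SE 0.61) and adjusted p of 0.779 and 0.714. *Celsr3* was called higher in both groups without Uninjured Control 1 (2.75 and 2.84), and without Uninjured Control 2 it was called lower with vehicle (-0.63, adjusted p = 0.0213) and had a value of -0.55 (adjusted p = 0.0833) with atorvastatin.

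Neuron markers that are not on the REST target list moved the same way, and their part in the lower values was not tested. Of 9 such markers 5 fell with vehicle and 7 with atorvastatin, beside 9.91% and 14% of all genes, and 0 rose, beside 19.9% and 24.9%. Their summed level was 8556 to 9124 CPM in uninjured cord, 4900 to 7828 CPM with vehicle and 4619 to 5967 CPM with atorvastatin, and the REST target list summed to 9156 to 9442, 4964 to 8011 and 4902 to 5977 CPM. Fits without 1 uninjured mouse called more genes over the whole set of tested genes, so their counts for this list are not interpreted. With atorvastatin against vehicle 0 of the 25 were called, 22 had a lower value with atorvastatin, and the median log2 fold change was -0.16, against -0.0014 over all genes. The median of the neuron markers was -0.15.

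**Figure D5:**
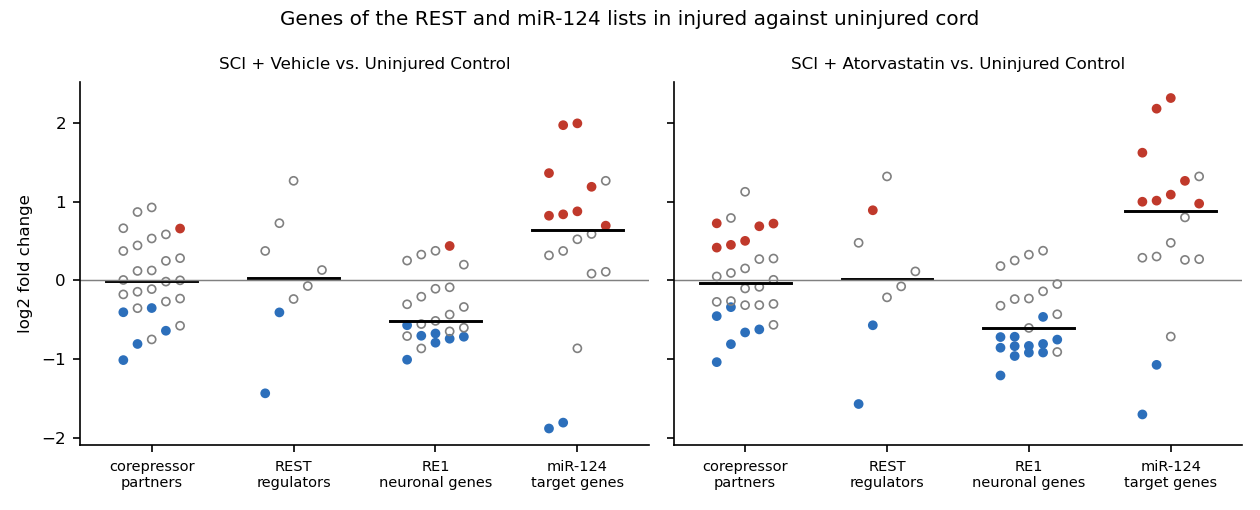
Each circle is a gene, its height is the log2 fold change against Uninjured Control, filled red circles were called higher and filled blue circles lower, open circles were not called, and the black line is the median of the list. Chrm4, at 0 in both uninjured libraries, is left out of the circles. The REST target list lies mostly below 0 (medians -0.52 and -0.61) and the miR-124 target list mostly above it (medians 0.64 and 0.89).

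Of 18 known targets of miR-124, among them *Ctdsp1* and *Ctdspl* of the list of REST regulators, 15 had a higher value than uninjured cord in each SCI group. In each SCI group 8 rose and 2 fell, with a median log2 fold change of 0.64 with vehicle and 0.89 with atorvastatin. Over all genes 19.9% and 24.9% rose and 9.91% and 14% fell, with medians of 0.17 and 0.21. *Ptbp1*, the splicing repressor whose loss accompanies neuronal differentiation, had 9.88 and 13.4 CPM in uninjured cord, 33.6 to 59.6 CPM with vehicle and 47.2 to 60.4 CPM with atorvastatin. It rose by 2.00 (SE 0.30, adjusted p = 0.000971) and by 2.18 (SE 0.18, adjusted p = 2.59e-05) on the log2 scale. *Slc16a1*, a lactate transporter, rose by 1.36 (SE 0.18, adjusted p = 0.000448) and by 1.62 (SE 0.15, adjusted p = 3.98e-05). *Efnb1*, an ephrin, fell by 1.81 (SE 0.50, adjusted p = 0.0200) and by 1.08 (SE 0.32, adjusted p = 0.0231), and *Snai2*, a transcription factor of mesenchymal cells, fell by 1.88 (SE 0.54, adjusted p = 0.0235) and by 1.71 (SE 0.46, adjusted p = 0.0149).

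Between the SCI groups 0 of the 18 were called, 16 had a higher value with atorvastatin, and the median log2 fold change was 0.16. Many of these targets are expressed by glia, immune cells and fibroblasts, and markers of those cells moved as well. Summed microglia or macrophage markers were 72.5 and 171 CPM in uninjured cord (*Cd68*, *P2ry12*, *Ptprc* and *Tmem119* each at 0 in 1 of the mice), 810 to 1110 CPM with vehicle and 882 to 1386 CPM with atorvastatin. Summed fibroblast markers were 242 and 259 CPM, 138 to 1099 CPM and 653 to 1915 CPM, and all 6 had a higher value with atorvastatin than with vehicle, with a median log2 fold change of 0.94. With atorvastatin against vehicle all 5 peripheral nerve markers (median 0.95), all 6 smooth muscle or pericyte markers (0.38), all 6 endothelium markers (0.28) and all 9 microglia or macrophage markers (0.12) also had a higher value, as *Rest* and *Hdac1* did, and 0 of them were called. Astrocyte markers (median 0.012, 4 higher and 3 lower) and oligodendrocyte markers (median -0.055, 3 higher and 4 lower) had no common direction with atorvastatin against vehicle. The part of any of these cell types in the values of *Rest*, *Hdac1*, *Hdac2* and the miR-124 targets was not tested.

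Calls of the non-neuronal marker lists against Uninjured Control follow, vehicle first. Beside them stand 19.9% and 24.9% of all genes that rose and 9.91% and 14% that fell. Of 9 microglia or macrophage markers 6 and 7 rose, of 6 fibroblast markers 0 and 5 rose, and 0 of these fell. Of 7 astrocyte markers 4 rose in each SCI group and 1 and 2 fell, and of 7 oligodendrocyte markers 1 rose in each and 1 and 3 fell. Of 6 smooth muscle or pericyte markers 2 and 4 rose, of 6 endothelium markers 0 and 1 rose, and of 5 peripheral nerve markers 0 and 2 fell. All 7 liver markers fell in both SCI groups.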

How the data were processed

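RNA of 16 mice was prepared with a stranded total RNA kit for low input. The submitters' processing notes name FastQC 0.12.1, Trimmomatic 0.38, STAR 2.5.4b, RSEM 1.3.1 and build mm10. The authors deposited a table of whole-number read counts per gene, not normalised, and a table of TPM values; the step behind the counts and the strand setting are not given in the sources used here. Libraries held 14823292 to 25579826 counts, and 3 counts were taken as the detection limit, which covers counting error only.

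Genes with a mean above 1 TPM in at least 1 condition were kept (16091 of 24411), with library totals over all genes. Each pair of groups was fitted on the deposited counts with edgeR 4.0.16 (TMM, quasi-likelihood test, Benjamini-Hochberg adjustment), as a design with no replicate block. Calls needed a change past 25% and an adjusted p below 0.05, or, between the SCI groups, an unadjusted p below 0.001. The fit was tested on simulated data whose spread came from the SCI libraries. That test does not cover the spread between the 2 uninjured libraries. Relations used log2 CPM with a prior count of 2, centred in each group, and 100000 permutations within groups or all orders of 7. Alternatives were DESeq2 1.42.0, limma 3.58.1 on log2(TPM + 1), other filters and scalings, and each mouse left out.

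The 9 genes and the lists were chosen with earlier results of these data known. No p is given for *Rest*, 2610100L16Rik or, between the SCI groups, any of the 9 genes, and calls among them there only describe the contrast behind the choice. Named genes were, of each list, those 2 called higher and 2 called lower with the lowest p, and the 5 highest and lowest r, all miR-124 rows and the genes with an RE1 match, the last chosen after their values were seen. The mice carried separate numbers and were treated as separate samples. No 2 libraries were identical.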

Additional observations from a re-analysis of the deposited data

Results flagged for a closer look

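In groups of 7 mice, a mouse was picked out where its distance to the next mouse took a larger part of the whole range of the group than Dixon's 95% limit allows. Of 24 groups of values examined, 3 had such a mouse, and chance alone picks out about 1 in 20. *Rcor3* was lowest in SCI + Atorvastatin 3, at 21.3 CPM, with the next mouse at 29.4 CPM. 2610100L16Rik was highest in SCI + Atorvastatin 6, at 12.9 CPM, with the next at 9.05 CPM. *Mir124a-3* was highest in SCI + Vehicle 7, at 2.55 CPM (58 counts), with the next at 0.96 CPM.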

How the results depend on the processing

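The 2 uninjured mice limit every comparison with Uninjured Control. In SCI + Vehicle against Uninjured Control, 2 of the tested genes were called, 3 by DESeq2 or with all 3 groups in 1 fit (*Hdac1* added), and 1 either with no gene filter or with the TPM minimum required of all 3 conditions. Of the corepressor partners 6 were called, 11 by DESeq2, 13 with all 3 groups in 1 fit and 3 by limma on log2(TPM + 1). By limma 1 of the REST regulators and 5 of the neuronal REST targets were called there, and in SCI + Atorvastatin 6 corepressor partners and 5 REST regulators. Between the SCI groups 1 gene, *Rest*, was called, as a description, 2 by DESeq2, and 0 with no gene filter, with the stricter TPM minimum, with all 3 groups in 1 fit, by limma and with a replicate block.

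By limma the log2 fold changes turned to 0.52 and 0.35 for *Rcor2* and to -0.14 and -0.0011 for *Rcor3* against Uninjured Control (vehicle, then atorvastatin), and to -0.17 for *Rcor2* between the SCI groups. The replicate numbers only name mice: same-numbered mice of the SCI groups had correlations from -0.17 to 0.12, 1 of 7 pairs above 0.1, and 0 mice correlated best with their own number. With the replicate block *Rcor2* turned to -0.0667, and 8 genes of all were called higher and 0 lower, in place of 14 and 3.

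With each mouse left out, the genes called ran from 1 to 4 for vehicle and from 2 to 6 for atorvastatin against Uninjured Control, and from 0 to 2 between the SCI groups. List counts ran from 6 to 11 (partners), 1 to 5 (regulators) and 11 to 14 (neuronal targets) with vehicle, and from 3 to 5 (regulators) and 15 to 20 (neuronal targets) with atorvastatin. These list counts come only from the fits without 1 uninjured mouse. The lists were not counted with an SCI mouse left out, so how they hold there was not tested. With each mouse of either kind left out, some log2 fold changes changed sign. Against Uninjured Control (vehicle, then atorvastatin), *Rcor1* ran from -0.13 to 0.75 and -0.0283 to 0.84. *Sin3a* ran from -0.13 to 0.34 and -0.0066 to 0.48, and *Kdm1a* from -0.52 to 0.10 and -0.44 to 0.18. Between the SCI groups *Rcor1* ran from -0.0204 to 0.17 and *Rcor2* from -0.18 to 0.15. *Rcor3* ran there from -0.0185 to 0.16 and *Hdac2* from -0.0815 to 0.0165. The centred r of *Rest* and 2610100L16Rik ran from -0.68 to -0.46, with permutation p from 0.0111 to 0.167, and was -0.74 on log2(TPM + 1). The cause of these changes was not tested.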
